A study of Arabidopsis thaliana with 18 samples.

Results

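The genes described here are the nuclear genes of plastid ribosomal proteins of Arabidopsis thaliana. They are 39 loci chosen by locus identifier, of 24951 genes listed in any library. They comprise 9 proteins of the small (30S) subunit, 24 of the large (50S) subunit and 6 plastid-specific ribosomal proteins (PSRP1 to PSRP6). All 39 were listed in every library, with expected counts between 240 and 12554.58, and all 39 passed the filter on low counts that left 20569 genes for testing. Wild type seedlings were held in darkness for 7 days, which leaves them etiolated, and were sampled after 0 (dark), 1, 2, 4, 8 or 12 h of light, with 3 libraries of polyA RNA at each time and 18 in all. The labels give seedling as the tissue, although the series title speaks of the leaf, and they do not name the accession line or say whether the libraries of a time came from separate cultures, so p-values measure the spread between these libraries only. There is no group of matching hours without light, so light, seedling age and time of day cannot be told apart.

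Plastids carry ribosomes of the bacterial type that translate the messages of the plastid genome, among them core subunits of the photosystems and the large subunit of Rubisco. The plastid genome encodes the ribosomal RNAs and a minority of the ribosomal proteins. The others are encoded in the nucleus, made in the cytosol and imported, and etioplasts turn into chloroplasts when a dark-grown seedling reaches the light. Ribosome assembly thus draws on both genomes.

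Summed expected counts lay between 22408394 and 22760811 in all libraries but replicate 3 of 8 h, which had 20072467. The depth was even enough that each member had at least 240 counts in every library. Replicate 3 in the dark and replicate 3 at 2 h stood apart within their groups in several sums of marker genes, though not in all. The 4 seed storage protein markers summed to 1596, 615 and 10699 FPKM in the dark replicates 1, 2 and 3. At 12 h they summed to 1.17 to 5.18 FPKM, and 1 of the 4 was at 0 in all libraries of that time. At 1 h they summed to 3862 to 7472 FPKM. In the 2 h replicates 1, 2 and 3 the sums were 6617, 1857 and 7114 FPKM, with replicate 2 the lowest. The 5 root endodermis markers summed to 478, 403 and 134 FPKM in the dark and to 190 to 210 FPKM at 12 h, with none at 0. In the 2 h replicates 1, 2 and 3 they summed to 499, 494 and 240 FPKM. The 5 root hair markers summed to 5.94 to 8.91 FPKM at 2 h, against at most 2.35 FPKM in any library of the other times. In these whole-seedling libraries, fewer cells of a type and less RNA per cell cannot be told apart. The part of tissue composition in the member values was not tested.

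Transcripts of plastid ribosomal proteins stood at their lowest after 1 h of light and at their highest after 12 h. The median member level was 48.8, 38.8, 72.7, 89.3, 182 and 208 FPKM in the dark and after 1, 2, 4, 8 and 12 h of light, where FPKM is the level per length of transcript and depth of library. The mean FPKM was highest at 12 h in 37 members and at 8 h in the other two, RPL29 and PSRP1. It was lowest at 1 h in 36 members. Of the summed FPKM of a library, all members together held 0.377% ± 0.0637 (SD over 3 libraries, as for the next values) in the dark. After 1 h this was 0.292% ± 0.0257, after 2 h 0.540% ± 0.167, after 4 h 0.653% ± 0.0963, after 8 h 1.20% ± 0.243 and after 12 h 1.39% ± 0.107. The share at 12 h was on average 3.69 times that in the dark. In an edgeR quasi-likelihood F test over the 6 times, 39 of 39 members differed (Benjamini-Hochberg adjusted p under 0.05), against 75% of all genes tested.

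**Figure D1:**
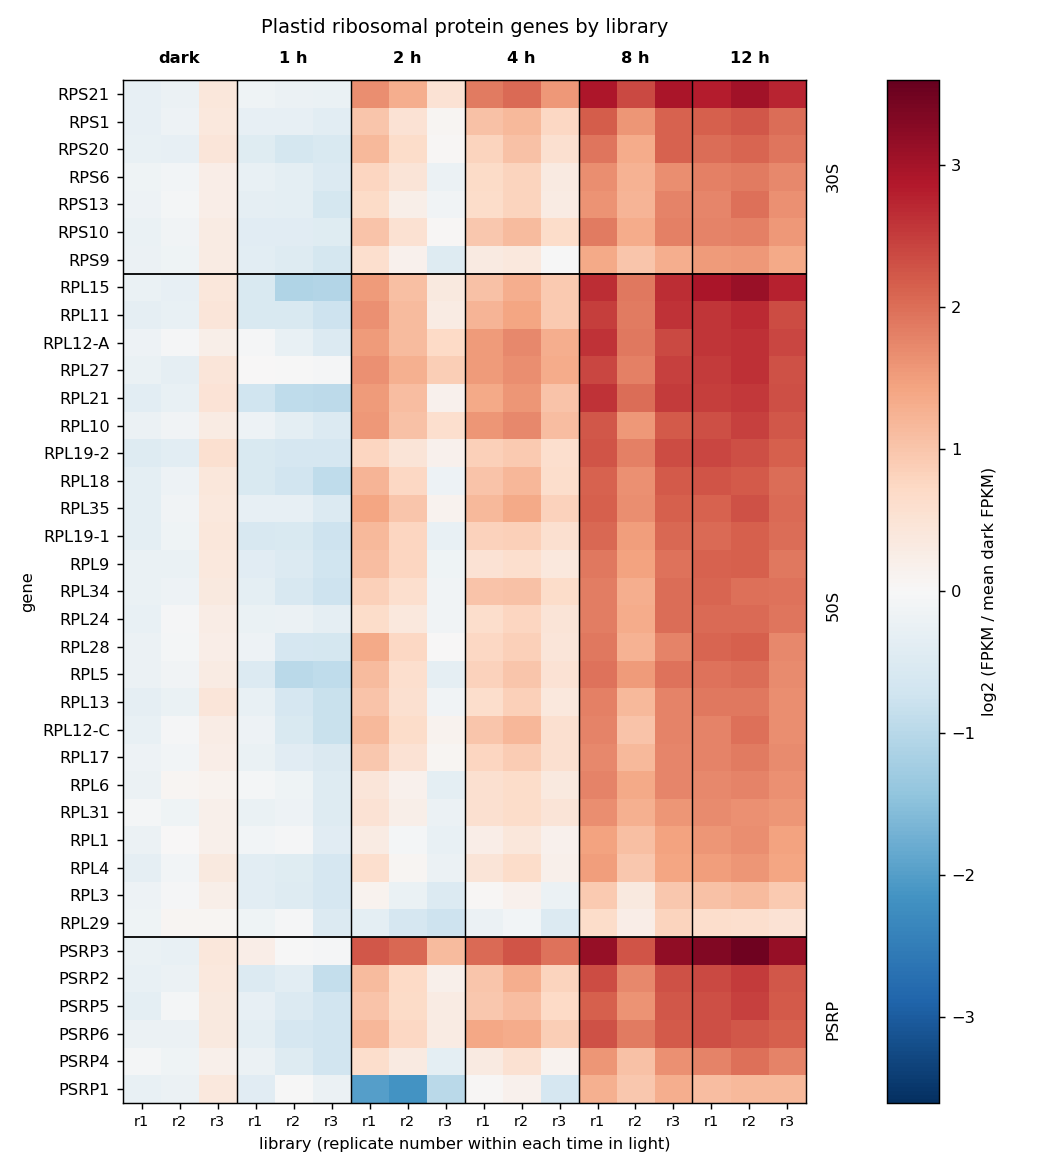
Level of 37 of the 39 genes (rows, grouped by subunit and ordered by the change at 12 h) in each of the 18 libraries (columns, by time in light), as log2 of FPKM over the mean dark FPKM of that gene. Colours run from blue (below the dark mean) to red (above it). At 8 and 12 h almost the whole panel is red, while PSRP1 at 2 h shows the deepest blue.

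The comparisons with the dark ask when the set departed from its etiolated level. A gene was called when its adjusted p lay under 0.05 over all genes tested and its fold change was at least 2. All 5 comparisons use the same 3 dark libraries. After 1 h of light 0 of 39 members were called higher, against 3.66% of all genes, and 0 were called lower, against 2.09%. The median log2 fold change of the members was -0.42 beside -0.06 over all genes. An unadjusted p under 0.05 was found in 9 of 39 members and in 4712 of 20569 genes, which are similar shares. DESeq2 and limma also called 0. The 3 libraries at 1 h lay below all 3 dark libraries in 20 members, against 14.7% of all genes, and above them in 0, against 13%. After 2 h, 7 members (17.9%) were called higher (all genes 13.9%) and 1 (2.56%) lower (all genes 6.46%). The median was 0.53 beside 0.10 over all genes. The 7 were PSRP3, RPL27, RPS21, RPL12-A, RPL11, RPL10 and RPL15, with log2 fold changes between 1.00 and 1.85. RPL15, at the 2-fold limit, was not called with the replicate number as a block (0.96 on the log2 scale; adjusted p = 0.0121, and 1.93e-04 to 0.0613 over all alternatives). The one called lower was PSRP1. By the adjusted p alone 17 differed in either direction, against 47% of all genes.

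After 4 h, 12 members were called higher (all genes 11%) and 0 lower (all genes 7.51%), with a median of 0.82 beside -0.005 over all genes, and by the adjusted p alone 28 differed, against 44.1%. After 8 h, 37 were called higher (all genes 13.6%) and 0 lower (all genes 9%), and the median was 1.81 beside 0.006. After 12 h, 38 were called higher (all genes 13.1%) and 0 lower (all genes 9.19%), and the median was 2.06 beside -0.01. By the adjusted p alone, all 39 were higher at 12 h, against 24.1% of all genes. All 39 had their 12 h libraries above their 3 dark libraries, against 27.8% of all genes. RPL29 was the member short of a call at 12 h, since its change was under 2-fold. Without dark replicate 3, 38 members were still called at 12 h, and 20 in place of 12 at 4 h. The count at 2 h moved more with single libraries, to 3 without 2 h replicate 1, 5 without dark replicate 1, 12 without 2 h replicate 3 and 18 without replicate 3 of both times, in place of 8 in both directions. Counts of all genes with these libraries left out are not given here.

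**Figure D2:**
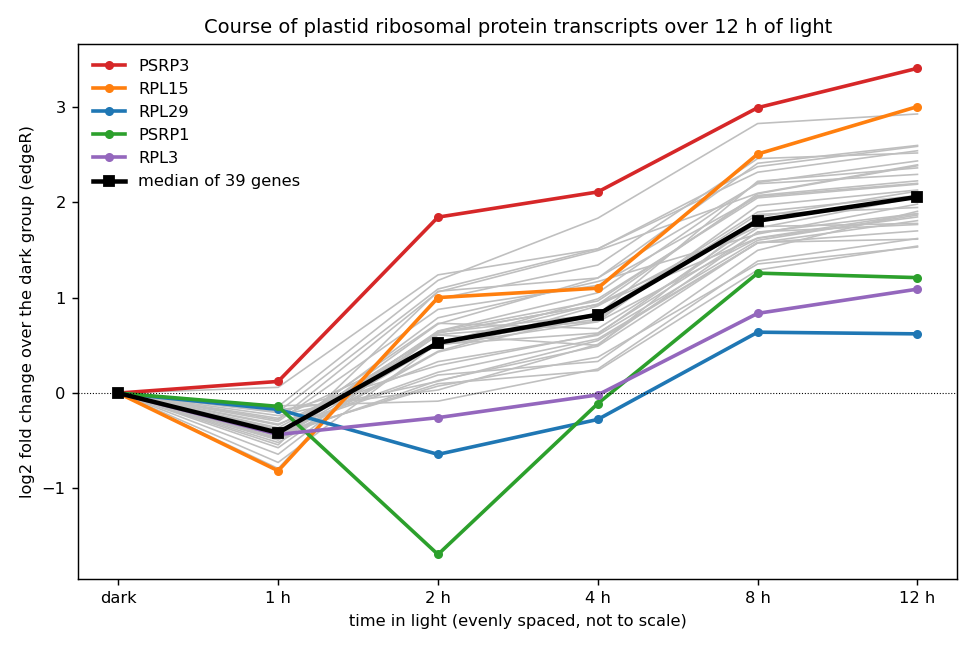
Fitted log2 fold change over the dark (vertical axis) at each time in light (horizontal axis, evenly spaced) for the 39 genes (grey lines), with 5 genes in colour and the median of all 39 in black. The median stands at -0.42 at 1 h and 2.06 at 12 h, and PSRP1 is at -1.69 at 2 h, away from the other genes.

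Sequence upstream of the gene start is given here because the members moved largely together while a few did not. The 250 bases upstream of the annotated start were read from the TAIR10.1 assembly with RefSeq gene starts, and all 39 members matched. RPL15 and PSRP3 had the largest changes at 12 h, PSRP1 had a course of its own, and RPL19-2 had the lowest mean level at 12 h. Sequences run 5′ to 3′ on the strand of the gene and end at the base before the start. Capitals mark site II elements (TGGGCC, a motif known from promoters of ribosomal protein and cell growth genes) and I-boxes (GATAAG, known from promoters of light-regulated genes), on either strand. The windows are chr5:8365351-8365600 (plus strand) for PSRP1, chr1:25758412-25758661 (minus strand) for PSRP3, chr3:9492656-9492905 (minus strand) for RPL15 and chr4:9779974-9780223 (plus strand) for RPL19-2.
PSRP1: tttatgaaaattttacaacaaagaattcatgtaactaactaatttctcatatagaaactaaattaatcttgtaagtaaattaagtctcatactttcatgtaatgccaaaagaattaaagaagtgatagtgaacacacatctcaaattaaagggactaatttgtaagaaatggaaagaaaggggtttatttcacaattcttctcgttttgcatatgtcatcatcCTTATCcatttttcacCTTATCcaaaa
PSRP3: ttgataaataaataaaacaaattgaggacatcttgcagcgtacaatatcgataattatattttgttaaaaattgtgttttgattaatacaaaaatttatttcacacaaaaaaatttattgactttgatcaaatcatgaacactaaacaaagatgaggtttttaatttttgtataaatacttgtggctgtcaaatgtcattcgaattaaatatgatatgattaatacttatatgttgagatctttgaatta
RPL15: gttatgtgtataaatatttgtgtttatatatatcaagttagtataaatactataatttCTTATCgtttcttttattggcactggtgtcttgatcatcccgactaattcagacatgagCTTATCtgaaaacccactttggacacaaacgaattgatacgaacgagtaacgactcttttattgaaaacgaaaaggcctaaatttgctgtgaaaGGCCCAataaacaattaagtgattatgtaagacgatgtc
RPL19-2: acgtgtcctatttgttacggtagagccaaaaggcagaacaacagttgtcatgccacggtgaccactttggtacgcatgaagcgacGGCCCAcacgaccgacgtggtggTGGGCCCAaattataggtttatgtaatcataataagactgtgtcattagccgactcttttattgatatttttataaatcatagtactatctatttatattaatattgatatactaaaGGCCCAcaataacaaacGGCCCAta

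The PSRP1 window has 2 I-boxes, starting 27 and 11 bases before the gene start. The RPL15 window has 2 I-boxes and 1 site II element. RPL19-2 has 5 site II matches, of which a pair overlap on opposite strands, and PSRP3 has none of the motifs searched. Over the 39 members, 12 windows (30.8%) held a site II element and 10 (25.6%) an I-box, against 13.7% and 12.3% of the 27443 upstream windows of the same length. A telo-box (AAACCCTA, found in promoters of translation genes) was in 4 members (10.3%; all windows 4.49%). A G-box (CACGTG, bound by light-signalling transcription factors) was in 3 members (7.69%; all windows 6.49%), and the letters CCAATC were in 4 (10.3%; all windows 10.2%). In 14 members none of these was found, among them RPS21 and RPL11, which were with RPL15 and PSRP3 the members of largest change. A match is a run of letters and not a tested site.

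All 9 small-subunit members were called higher at 12 h, with a median log2 fold change of 1.87. RPS21, a late-joining protein of the small subunit in Escherichia coli, changed most. RPS21 (AT3G27160) had 23.3, 24.5 and 37.9 FPKM in the dark, 25.8, 24.6 and 24.4 at 1 h, 90.9, 71.1 and 41.3 at 2 h, 104, 118 and 84.8 at 4 h, 215, 148 and 221 at 8 h and 202, 230.5 and 193 at 12 h. From 2 h on every library lay above the dark libraries. Its log2 fold change was 1.18 ± 0.24 (SE; adjusted p = 0.0011) at 2 h and 2.93 ± 0.26 (SE; adjusted p = 2.61e-07) at 12 h. RPS1, which binds messenger RNA at initiation in E. coli, had 166, 178 and 149.8 FPKM at 12 h, against 30.8, 33.0 and 48.7 FPKM in the dark, a log2 fold change of 2.19. The smallest change of the subunit was in RPS9, whose E. coli counterpart contacts transfer RNA, with 185, 189 and 163 FPKM at 12 h, against 55.2, 57.9 and 78.7 FPKM in the dark (log2 fold change 1.54). RPS6, RPS10, RPS13 and RPS20 lay between, at 1.78 to 2.07. At 2 h RPS21 alone among the small-subunit members was called.

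Of the 24 large-subunit members, 23 were called higher at 12 h, with a median log2 fold change of 2.06. RPL15, whose E. coli counterpart sits centrally in the large subunit, changed most. RPL15 (AT3G25920) had 35.0, 33.5 and 54.3 FPKM in the dark, 27.8, 19.5 and 19.6 at 1 h, 118, 86.2 and 52.1 at 2 h, 84.5, 101 and 78.1 at 4 h, 258, 153 and 258 at 8 h and 311, 354 and 279 at 12 h. Its 1 h libraries were all below, and its 4, 8 and 12 h libraries all above, the dark libraries. The log2 fold change was 3.01 ± 0.29 (SE; adjusted p = 6.61e-07) at 12 h. At 1 h it was -0.82 ± 0.27 (SE; adjusted p = 0.0717), the lowest of all members and not past the threshold, while DESeq2 gave an adjusted p of 0.0283. The reads of RPL15 come with a limit, since its locus overlaps AT3G25910 on the other strand and its counts were fractional in 18 libraries. The estimate for AT3G25910 went the other way, -0.99 ± 0.17 (SE; adjusted p = 2.16e-04) at 12 h.

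The stalk of the large subunit, which recruits translation factors in E. coli, was represented by RPL10 at its base, RPL11 beside it and the RPL12 copies. All of these were called higher at 12 h. RPL11 (AT1G32990) had 124, 134 and 108 FPKM at 12 h, against 16.9, 17.6 and 28.6 FPKM in the dark, a log2 fold change of 2.60 ± 0.29 (SE; adjusted p = 3.47e-06). RPL10 had 308, 336 and 288 FPKM at 12 h, against 53.0, 55.9 and 75.2 FPKM in the dark (2.39 on the log2 scale). Both were among the 7 members called higher at 2 h, a share near that of all genes (17.9% and 13.9%). RPL27, next to the peptidyl transferase centre in E. coli, was 1 of 2 members with a fitted value above the dark at 1 h. RPL27 (AT5G40950) had 36.8, 34.7 and 59.4 FPKM in the dark, 44.4, 43.6 and 42.8 at 1 h, 136, 106 and 80.4 at 2 h, 126, 139 and 109 at 4 h, 229.5, 154 and 240.2 at 8 h and 249, 268 and 213 at 12 h. Dark and 1 h libraries overlapped, with a log2 fold change of 0.06 ± 0.21 (SE; adjusted p = 0.897) at 1 h, and at 12 h it was 2.54 ± 0.22 (SE; adjusted p = 1.82e-07). RPL21 was also in the upper range at 12 h, at 2.52.

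RPL29, RPL3 and RPL4 had the smallest changes of the large subunit. RPL29 lies beside the exit of the peptide tunnel in E. coli, and it was the most abundant member per length in the dark. RPL29 (AT5G65220) had 187, 218 and 218 FPKM in the dark, 187, 203 and 147 at 1 h, 163, 137 and 124 at 2 h, 179, 194 and 149 at 4 h, 331, 247 and 364 at 8 h and 321, 314 and 296 at 12 h. Its 2 h libraries were all below, and its 8 and 12 h libraries all above, the dark libraries. The log2 fold change was -0.64 ± 0.17 (SE; adjusted p = 0.00558) at 2 h and 0.62 ± 0.17 (SE; adjusted p = 0.00681) at 12 h, both under 2-fold. RPL3, which starts large-subunit assembly in E. coli, had 285, 304 and 263 FPKM at 12 h, against 121, 135 and 159 FPKM in the dark, a log2 fold change of 1.09 ± 0.18 (SE; adjusted p = 1.62e-04). RPL4, which lines the peptide tunnel in E. coli, had 208, 221 and 195 FPKM at 12 h, against 58.2, 68.3 and 93.8 FPKM in the dark, a log2 fold change of 1.53 ± 0.21 (SE; adjusted p = 2.82e-05). RPL1, of the stalk on the side where transfer RNA leaves, had 361, 384 and 327 FPKM at 12 h, against 103, 122 and 135 FPKM in the dark, a log2 fold change of 1.62 ± 0.17 (SE; adjusted p = 1.58e-06). At 1 h RPL1 was at -0.13 on the log2 scale, without a call. All of these but RPL29 were called higher at 12 h.

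The 6 plastid-specific proteins held both the largest change of all members and the one member called lower in any comparison. PSRP3, a small-subunit protein with a counterpart in cyanobacteria, had the lowest mean of all members in the dark. PSRP3 (AT1G68590) had 15.6, 15.2 and 24.3 FPKM in the dark, 21.5, 18.3 and 17.8 at 1 h, 87.2, 77.7 and 40.5 at 2 h, 76.0, 88.7 and 71.8 at 4 h, 162, 88.4 and 167 at 8 h and 186, 208 and 161 at 12 h. From 2 h on every library lay above the dark libraries. The log2 fold change was 0.12 ± 0.27 (SE; adjusted p = 0.832) at 1 h, 1.85 ± 0.27 (SE; adjusted p = 6.60e-05) at 2 h and 3.41 ± 0.29 (SE; adjusted p = 1.54e-07) at 12 h. Its locus overlaps AT1G68585 on the other strand, whose estimate at 12 h was -0.60 ± 0.45 (SE; adjusted p = 0.293), and its counts were fractional in 18 libraries. A second gene annotated for the same protein, AT5G15760, had a mean of 2.04 ± 0.578 FPKM at 12 h and 0.947 ± 0.423 FPKM in the dark (SD, n = 3 each), far under PSRP3.

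PSRP1 is related to the bacterial factors that hold ribosomes in an inactive, hibernating state, and is regarded as such a factor rather than as a structural ribosomal protein. PSRP1 (AT5G24490) had 64.9, 67.9 and 103 FPKM in the dark, 59.8, 78.4 and 67.6 at 1 h, 19.8, 17.6 and 40.0 at 2 h, 81.3, 87.0 and 51.4 at 4 h, 192, 154 and 195 at 8 h and 172, 175 and 177 at 12 h. The 2 h libraries were below all others, and the 8 and 12 h libraries were above all others. PSRP1 fell at 2 h relative to both earlier times, with a log2 fold change of -1.69 ± 0.26 (SE; adjusted p = 1.07e-04) against the dark and -1.55 ± 0.26 (SE; adjusted p = 3.02e-04) against 1 h. At 4 h it was 1.58 above 2 h (SE 0.26; adjusted p = 0.00133), the one member called in that step. At 12 h it was 1.21 ± 0.26 (SE; adjusted p = 0.00127) against the dark. Replicate 3 at 2 h, at 40.0 FPKM, lay above replicates 1 and 2 of that time. The locus overlaps AT5G24500 on the other strand, and its counts were fractional in 18 libraries. The estimate for AT5G24500 was -0.38 ± 0.13 (SE; adjusted p = 0.0268) at 2 h, a smaller change than that of PSRP1.

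The other plastid-specific members rose by 12 h. PSRP2, an RNA-binding protein of the small subunit, had 173, 188 and 156 FPKM at 12 h, against 27.5, 28.4 and 43.0 FPKM in the dark, a log2 fold change of 2.44 ± 0.25 (SE; adjusted p = 1.12e-06). PSRP4, also of the small subunit, had 240.1, 277 and 244 FPKM at 12 h, against 67.1, 63.7 and 80.0 FPKM in the dark, a log2 fold change of 1.91 ± 0.22 (SE; adjusted p = 5.07e-06). PSRP5, of the large subunit, had 382, 421 and 356 FPKM at 12 h, against 59.9, 73.2 and 97.4 FPKM in the dark, a log2 fold change of 2.38 ± 0.22 (SE; adjusted p = 3.83e-07). PSRP5 was the second most abundant member at 12 h. PSRP6, of the large subunit, had 144, 136 and 129.6 FPKM at 12 h, against 25.1, 25.2 and 36.7 FPKM in the dark, a log2 fold change of 2.29 ± 0.21 (SE; adjusted p = 5.09e-07). None of these 4 was called at 1 or 2 h. The median of all 6 plastid-specific members at 12 h was 2.34.

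How alike the members behaved was described with the correlation of each one's log2 CPM (counts scaled to library depth) with the mean of the other 38 over the 18 libraries. These libraries share their times, so the values describe the likeness of course only. The correlation was over 0.9 in 37 members, with a median of 0.987. It was 0.600 for PSRP1 and 0.744 for RPL29. RPL3 came next, at 0.935. Members also ranked the libraries of a time alike. On that scale, dark replicate 1 was the lowest of its group in 39 of 39 members and dark replicate 3 the highest in 36, and by FPKM these numbers were 32 and 39. At 2 h replicate 1 was the highest in 38 members and replicate 3 the lowest in 38 on both scales, PSRP1 being the exception in both. The median member stood at 1.02, 0.56 and -0.11 relative to the dark mean on the log2 scale in the 2 h replicates 1, 2 and 3, against 0.14, 0.11 and 0.06 for all genes tested. Shoot epidermis and guard cell markers (5 genes, none at 0) summed to 956, 840 and 429 FPKM in the same libraries. In the dark replicates 1, 2 and 3 they summed to 305, 316 and 220 FPKM, so replicate 3 was the lowest for them. At 4 h the sums were 285, 299 and 318 FPKM, while replicate 3 was the lowest in 39 of 39 members. At 8 h the sums were 290, 176 and 295 FPKM, and replicate 2 was the lowest in 39 of 39 members too. The part of these markers in the member values was not tested.

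The comparisons of neighbouring times ask where in the course the transcripts rose. None of them sets a time against the dark, though the dark libraries enter the shared fit. Between 1 h and 2 h, 20 members were called higher (all genes 15.7%) and 1, PSRP1, lower (all genes 5.66%). By the adjusted p alone 34 differed in either direction, against 49.3% of all genes. The median log2 change was 1.06 beside 0.12 over all genes. The largest were in RPL15, 1.82, RPL21, 1.78, PSRP3, 1.72, and RPL11, 1.61. Between 2 h and 4 h 1 member was called higher (all genes 2.04%), PSRP1, and 0 lower (all genes 7.73%), with a median of 0.32 beside -0.0009. Between 4 h and 8 h, 23 members were called higher (all genes 1.90%) and 0 lower (all genes 1.67%), with a median of 1.06 beside 0.02, and by the adjusted p alone 36 were higher (all genes 6.57%). The largest change in that step was 1.41, in RPL15. RPL29 and RPL3, the members of least change over the course, had 0.92 and 0.86 in that step.

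Between 8 h and 12 h 0 members were called in either direction, as were 0 of all genes (0%), while 0 members and 944 of all genes had an unadjusted p under 0.05 in edgeR. DESeq2 called 7 of all genes and limma 1, with 0 members in both. The median was 0.21 beside -0.01. The 12 h libraries lay above all 8 h libraries in 14 members, against 7.49% of all genes. At 8 h replicate 2 was the lowest library in 39 of 39 members on both scales. The count between 1 h and 2 h was 8 without 2 h replicate 1, in place of 21 in both directions. Between 4 h and 8 h, leaving out 4 h replicate 3 or 8 h replicate 1 gave 11 calls each, leaving out 8 h replicate 3 gave 15 and leaving out 8 h replicate 2 gave 34. For fits with a library left out, counts of all genes are not given here. With libraries scaled by size alone, 294 of all genes were higher and 428 lower at 8 h than at 4 h, in place of 391 and 343, and 17 members were higher.

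**Figure D3:**
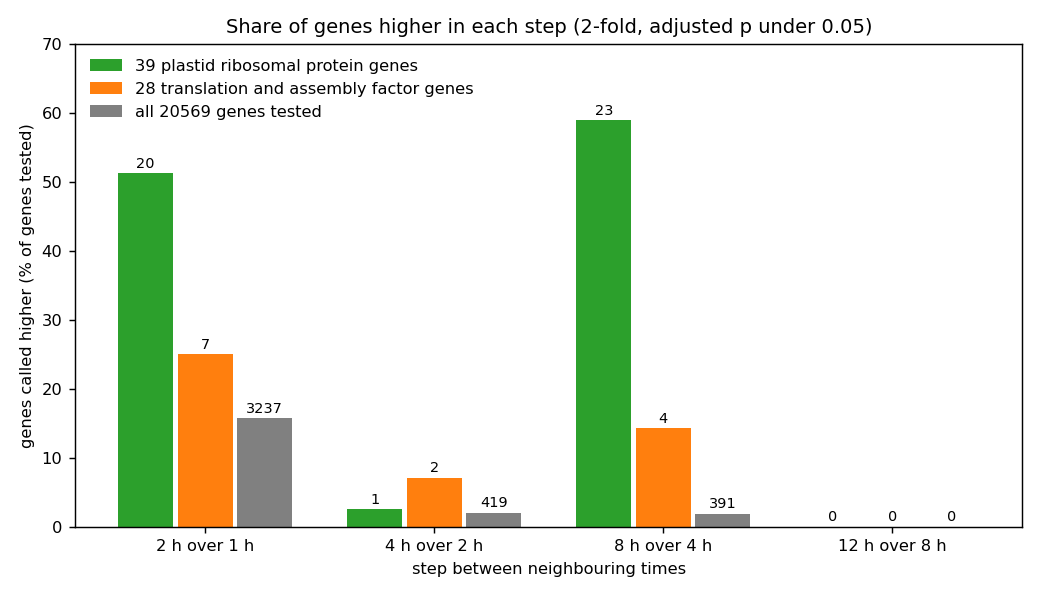
Share of genes called higher (vertical axis, percent of the genes tested) in each step between neighbouring times (horizontal axis), for the 39 plastid ribosomal protein genes, 28 genes of plastid translation and ribosome assembly factors, and all 20569 genes tested. Numbers over the bars are counts of genes. The ribosomal protein genes have 20 calls from 1 h to 2 h and 23 from 4 h to 8 h, with 1 and 0 in the other steps.

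Levels per length were more alike among the members from 2 h of light on than in the dark, though not at 1 h. The highest member mean was 11.3, 14.6, 7.79, 7.95, 5.48 and 5.76 times the lowest in the dark and after 1, 2, 4, 8 and 12 h of light. In single libraries the SD over members of log2 FPKM was 0.555, 0.586 and 0.580 at 12 h, against 0.832, 0.884 and 0.722 in the dark. These did not overlap, while at 1 h the SD was 0.868, 0.916 and 0.857 and overlapped that in the dark. At 12 h the lowest were RPL19-2 (90.3 FPKM), RPL9 (108) and RPL19-1 (116) and the highest RPL12-A (520) and PSRP5 (386). In the dark the lowest means were those of PSRP3 (18.4 FPKM), RPL19-2 (18.4) and RPL11 (21.0) and the highest those of RPL29 (208), RPL3 (138) and RPL1 (120). The order of the members by mean FPKM at 12 h and in the dark had a Spearman rho of 0.78 across 39 genes, which are not independent replicates.

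**Figure D4:**
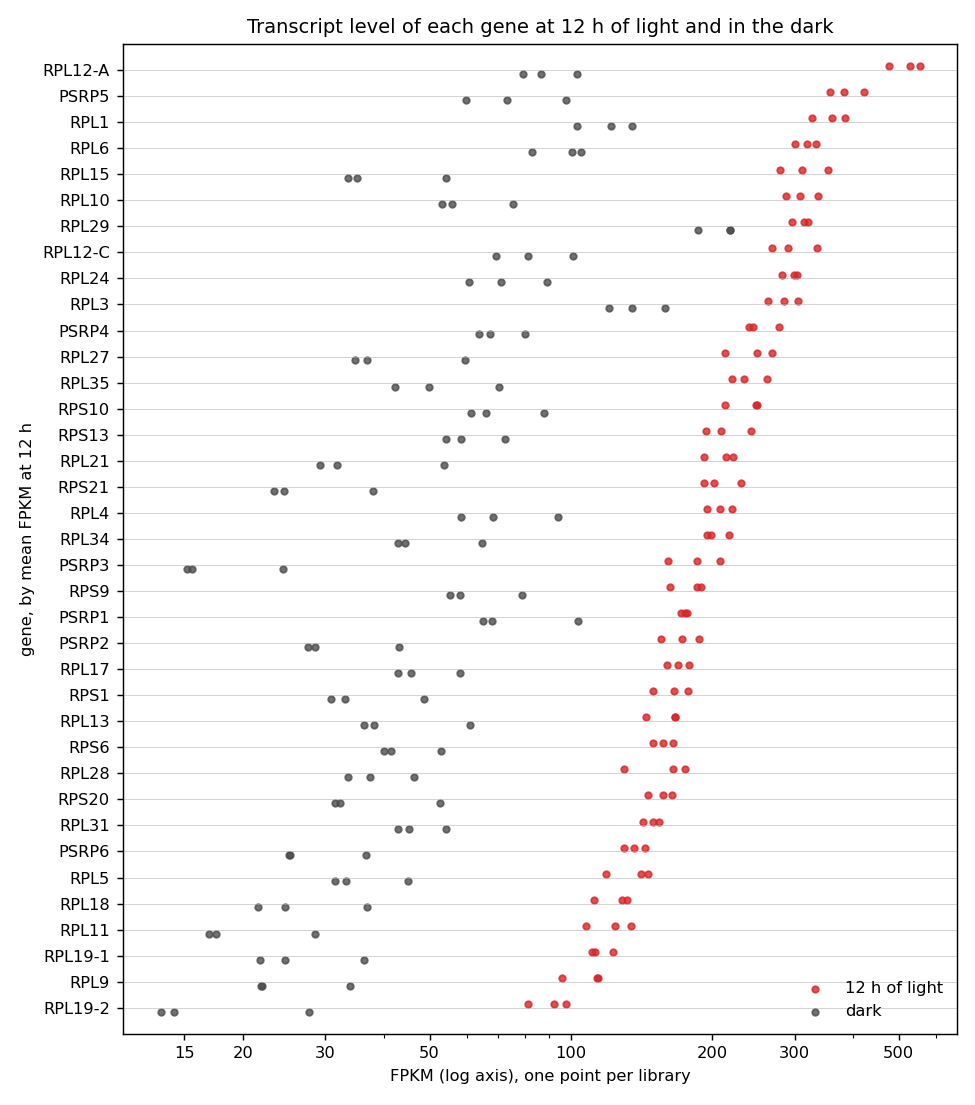
FPKM of 37 of the 39 genes (rows, by mean at 12 h) in the 3 libraries at 12 h of light (red) and the 3 dark libraries (grey), on a log axis. The red points lie right of the grey points in every row, with the smallest gap in RPL29 and the widest in PSRP3.

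RPL12 and RPL19 are each encoded by a pair of members, which allows the balance between copies to be followed. RPL12-A and RPL12-C lie 4867 bases apart on chromosome 3, with RPL12-B between them, and their counts were fractional in 18 libraries, so reads may be divided between them. The RPL12-A locus also overlaps AT3G27831 on the other strand, while RPL12-C overlaps no listed locus. RPL12-A (AT3G27830) had 529, 554 and 477 FPKM at 12 h, against 79.1, 86.4 and 103 FPKM in the dark, a log2 fold change of 2.59 ± 0.22 (SE; adjusted p = 2.11e-07). RPL12-C (AT3G27850) had 291, 335 and 269 FPKM at 12 h, against 69.2, 81.2 and 101 FPKM in the dark, a log2 fold change of 1.88 ± 0.27 (SE; adjusted p = 4.30e-05). The copies stood closest in the dark. The ratio of RPL12-A to RPL12-C was 1.07, 1.26, 1.50, 1.62, 1.81 and 1.75 in the dark and after 1, 2, 4, 8 and 12 h of light. The log2 ratio at 12 h was 0.70 above that in the dark, without overlap of libraries, with an exact two-sided permutation p of 0.1, the smallest that 3 libraries against 3 allow. RPL12-B had no more than 2 counts in any library.

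RPL19-1 (AT5G47190) had 113, 123 and 111 FPKM at 12 h, against 21.7, 24.5 and 36.3 FPKM in the dark, a log2 fold change of 2.13 ± 0.28 (SE; adjusted p = 1.53e-05). RPL19-2 (AT4G17560) had 97.9, 92.2 and 81.0 FPKM at 12 h, against 13.3, 14.2 and 27.6 FPKM in the dark, a log2 fold change of 2.36 ± 0.22 (SE; adjusted p = 5.30e-07). The proteins of both copies bind at the interface of the subunits in E. coli. The ratio of RPL19-1 to RPL19-2 took the values 1.54, 1.45, 1.60, 1.44, 1.26 and 1.28 over the same series. The log2 difference of -0.27 between 12 h and the dark had an exact two-sided permutation p of 0.3, and the libraries overlapped. Counts of both were fractional in 11 libraries.

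**Figure D5:**
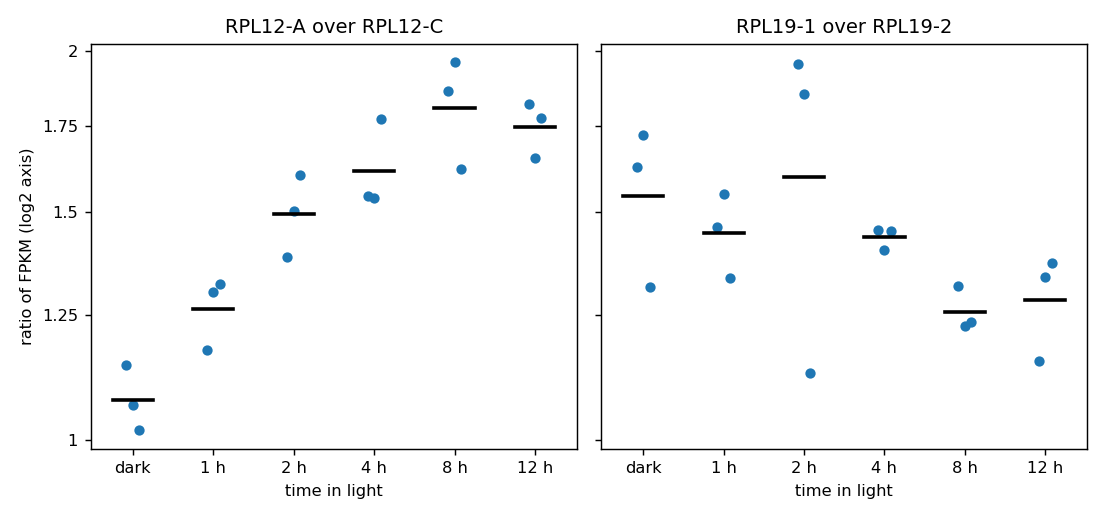
Ratio of FPKM between the RPL12 copies (left) and between the RPL19 copies (right) at each time in light, on a log2 axis. Points are libraries and bars the mean log2 ratio of 3. The RPL12 ratio stands at 1.75 at 12 h and 1.07 in the dark, and the RPL19 ratio at 1.28 at 12 h and 1.54 in the dark.

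The members are spread over the genome, with 12 on chromosome 1, 5 on chromosome 2, 11 on chromosome 3, 2 on chromosome 4 and 9 on chromosome 5. Of the 39 loci, 15 overlap another listed locus and 14 had fractional counts in more than 9 libraries, 18 with either. These are uncertain in level. Reads of overlapping genes on opposite strands cannot be told apart where the counting is not stated to use strand. That reason does not cover all of them. RPL5 overlaps a locus on its own strand, as RPS20 does for 1 of 2 loci. RPL12-C, RPL19-1 and RPL19-2 had fractional counts without overlapping a listed locus. The other 21 had neither limit, among them RPS21, RPL11, RPL27, RPL29 and RPL3. A single transcript was listed for 28 members. Of the 11 with several, 5 had one transcript with more than 95% of the summed transcript FPKM at every time. In RPS13, the transcript AT5G14320.2 held 73.2% ± 0.889 of that sum at 12 h and 59.6% ± 6.38 in the dark (SD, n = 3 each), without overlap of libraries. In RPL4, the transcript AT1G07320.3 held 45.5% ± 5.47 at 12 h and 34.9% ± 2.68 in the dark (SD, n = 3 each), also without overlap. Its share was higher at 2 h and 4 h, with means of 56.0% and 59.6%. Of 25 transcripts compared, 3 had no overlap of 12 h and dark libraries, namely these and AT5G14320.1 of RPS13. RPS13 has only AT5G14320.1 and AT5G14320.2 listed, so their shares mirror each other and are a single difference. Under exact permutation, 3 libraries separate fully from 3 with a probability of 0.1, and the share over all transcripts was not computed. The transcript shares are estimates that divide reads between transcripts of the same gene, and they were not tested.

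Other genes of plastid translation and ribosome assembly were set beside the members as a list of 28 factors. Of these, 24 were called higher (all genes 13.1%) and 0 lower (all genes 9.19%) at 12 h, with a median log2 fold change of 1.95. EF-G, the elongation factor that moves the ribosome along the message, had the largest change, with 373 ± 21.3 FPKM at 12 h and 29.2 ± 3.12 FPKM in the dark (SD, n = 3 each), a log2 fold change of 3.73 ± 0.14 (SE; adjusted p = 6.28e-11). OBGC and BPG2, GTPases of ribosome assembly, were at 2.85 and 2.79, and PRFB3, a protein of the release factor family, at 2.80. The 4 smallest changes were in IF3-SVR9L1, an initiation factor, at 0.26, RH50, a DEAD-box helicase, at 0.34, CGL20B at 0.43 and RF2, a release factor, at 0.59, none of which reached 2-fold. After 1, 2, 4 and 8 h of light, 1, 10, 16 and 23 of them were called higher and 0, 1, 0 and 0 lower. Of all genes, 3.66%, 13.9%, 11% and 13.6% were called higher at these times and 2.09%, 6.46%, 7.51% and 9% lower. EF-G was the one called at 1 h, at 1.11 ± 0.12 (SE; adjusted p = 1.53e-05). IF3-SVR9L1 was the one called lower at 2 h, at -1.65 ± 0.14 (SE; adjusted p = 4.03e-07). In the steps between neighbouring times, 7 of the 28 were called higher between 1 h and 2 h (all genes 15.7%) and 2 between 2 h and 4 h (all genes 2.04%). Between 4 h and 8 h 4 were called higher (all genes 1.90%), and between 8 h and 12 h 0 (all genes 0%). By the adjusted p alone, 22 of the 28 and 1 of the 39 members were higher at 4 h than at 2 h, against 11.1% of all genes. The difference between the lists was not tested.

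The partners of the members in the ribosome that the plastid genome encodes gave 16 genes that passed the filter, of 21 listed, with copies in the inverted repeat (rps7 and rpl2 among the 16), whose values were identical, counted once. At 12 h 0 of them were called in either direction, and 2 had an unadjusted p under 0.05. Their median log2 fold change was -0.16. Plastid transcripts largely lack the polyA tails by which these libraries were selected, so their level is not measured on the same footing. Among 206 genes annotated to the cytosolic ribosome, 28 (13.6%) were called higher and 3 (1.46%) lower at 12 h, against 13.1% and 9.19% of all genes, so the share called higher was near the background. Their median was 0.43. Between 4 h and 8 h, where 23 members were called higher, 0 of the 206 were (all genes 1.90%). Their median log2 change in that step was 0.51, beside 0.02 over all genes. Between 1 h and 2 h, 53 of the 206 (25.7%) were called higher (all genes 15.7%), with a median of 0.72 beside 0.12. Their median at 1 h was -0.50, beside -0.42 for the members.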

How the data were processed

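RNA was measured in 18 libraries, 3 at each of 6 times. The deposited tables give an expected count per gene and transcript, which need not be whole, and FPKM, which the authors scaled to length and depth, per the file headers. RSEM, Bowtie2 and HISAT2 are named in the submitters' processing notes, without versions. The genome build and strand setting are not given in the sources used here. Member coordinates in the files were identical to RefSeq TAIR10.1 for 39 of 39 loci. Genes not listed in a library were set to 0.

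Expected counts were rounded and analysed with edgeR 4.0.16, DESeq2 1.42.0 and limma 3.58.1 in R 4.3.3. The main test was edgeR's quasi-likelihood test with TMM factors and filterByExpr, in a single fit of 18 libraries with a term per time, tested on simulated data beforehand. P-values were adjusted over 20569 genes (Benjamini-Hochberg), and a call needed an adjusted p under 0.05 and a 2-fold change. The SE is the log2 fold change over the square root of F, an approximation. No low-value pseudocount was used for FPKM. Copy ratios were tested by exact permutation. The libraries of a group were no duplicates, since over the 18 pairs within groups the chi-square per gene was at least 10.96.

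Deviations of same-numbered libraries from their group means had correlations of 0.12, 0.30 and 0.29 between 2 h and the dark. Between 8 h and the dark they were 0.01, 0.11 and 0.24, and between 4 h and the dark -0.08, -0.33 and -0.39. With 3 libraries a time, these values do not settle whether the numbers pair the libraries. The main fit had no replicate block, and the block was run as an alternative. Replicate numbers are those of the sample titles. The deposited names number the dark libraries 2, 3 and 4 and the 2 h libraries 1, 3 and 4, so by those names the pairs of replicates 2 and 3 are the same and replicate 1 has no partner. The members, the lists and the rule for genes named in full (the 4 highest and 4 lowest at 12 h, the 4 highest at 1 h, PSRP1 to PSRP6 and the copy pairs) were chosen with earlier results of these data known. Members outside that rule were named after their values were seen. Counting error sets only a lower limit on the spread. Alternatives were the scaling, the low-count filter, the fold minimum, the tool, the replicate block, the libraries fitted and leaving out libraries. The values of 2 members and some sequence are not reported here, while the counts and medians cover all 39.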

Additional observations from a re-analysis of the deposited data

How the results depend on the processing

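The counts of members called at 1, 8 and 12 h, between 2 h and 4 h and between 8 h and 12 h stayed within 1.5 times the reported count under every alternative run, and 39 members differed at any time under each. Without the fold minimum the counts in both directions were 17 at 2 h (all genes 47%) and 28 at 4 h (all genes 44.1%) against the dark. Between neighbouring times they were 34 from 1 h to 2 h (all genes 49.3%) and 36 from 4 h to 8 h (all genes 11.4%). At 2 h the members were thus not above the background with both directions pooled. By direction, 15 of the 39 were higher and 2 lower, beside 5286 higher and 4373 lower of 20569 genes. Leaving out one library at a time gave 3 to 12 at 2 h, 10 to 20 at 4 h, 8 to 26 between 1 h and 2 h, 11 to 34 between 4 h and 8 h, and a median at 12 h of 1.96 to 2.17. Without replicate 3 of both the dark and 2 h, the counts at 2 h and 4 h were 18 and 20 and the median at 12 h was 2.16. The cause was not tested. Under the replicate block the counts were 0, 7, 12, 37 and 38 against the dark and 21, 1, 25 and 0 between neighbouring times. Counts of all genes under the block or with libraries left out are not given beside these. A shift of the members alone therefore cannot be read from them. Of 50 single-member results it ended 1 call, RPL15 at 2 h, and added 1, RPS21 between 4 h and 8 h (1.00 in place of 0.99 on the log2 scale), both at the 2-fold limit. PSRP3 between 4 h and 8 h, not called for its fold, had an adjusted p of 0.0548 with the block and 0.0387 without. Whether the numbers pair the libraries is not known at any time, and the block used the numbers of the titles. In the exact sign-flip test with the replicate block, the RPL12 ratio had p = 0.25, the smallest that 3 pairs allow, and the RPL19 ratio had p = 0.5.

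By summed expected counts, which do not divide by length, the members held 0.233%, 0.178%, 0.319%, 0.388%, 0.744% and 0.853% in the dark and at 1, 2, 4, 8 and 12 h. At 1 h, values near 0 changed sign in 3 members. PSRP1 was at -0.256 to 0.0444 with one library left out (highest without dark replicate 3) and 0.034 without replicate 3 of both times. RPL1 was at -0.226 to 0.000997 (highest without 1 h replicate 3). RPL27 was at -0.0021 scaled by library size alone and at -0.034 to 0.285 with one library left out (lowest without dark replicate 1). Scaling by library size alone moved the median of all genes between 1 h and 2 h to 0.25 in place of 0.12, and 25 members were called there in place of 21. Overlapping loci, unknown strand setting and 3 libraries a time limit what can be resolved.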
